A study of Mus musculus with 28 samples.

Results

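Voltage-gated sodium channels of the brain were followed here through 6 genes, found by their names among the 41549 genes of the count tables: the pore-forming alpha subunits Scn1a, Scn2a, Scn3a and Scn8a and the auxiliary beta subunits Scn2b and Scn3b. All 6 were present and passed the filter on low counts in every comparison. The libraries came from nuclei of mouse motor cortex, from 7 animals numbered 17 to 23. Both hemispheres of each animal carried a viral vector (adeno-associated virus, AAV) with the nuclease Cas9, called AAV-Cas9-miR-124-empty on the left and AAV-Cas9-miR-124-g4 on the right, so vector and side of the brain cannot be told apart. Nuclei were stained for the HA tag of Cas9 and sorted, which gave 4 groups of 7 libraries: HA-positive and HA-negative nuclei with the empty vector, and the same with g4. No group was free of vector, and the HA-negative nuclei came from the same injected tissue. The sources used here give neither the promoter that drives Cas9, nor the target of g4, nor the strain, genotype, sex and age of the animals.

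A voltage-gated sodium channel opens when the membrane is depolarised and carries the sodium current that starts and propagates the action potential. 1 alpha subunit forms the pore and sets which neurons and which part of the axon the channel serves, while beta subunits tune its gating and its anchoring in the membrane. In the cortex, Scn1a is best known as the channel of fast-spiking and other inhibitory interneurons, and its loss on 1 allele causes severe epilepsy. Scn2a and Scn8a serve the axon initial segment, above all of excitatory neurons, and Scn3a is the alpha subunit of immature neurons. miR-124 is an abundant neuronal microRNA that lowers messenger RNAs with matching sites in their 3′ untranslated regions (3′ UTRs).

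Since the vectors are named for miR-124, the longest annotated 3′ UTR of each gene was searched on the transcript strand for the letters that pair with the miR-124 seed: GTGCCTT (a 7mer-m8 site), TGCCTTA (a 7mer-A1 site) and both together, GTGCCTTA (an 8mer site, counted once). 2 of the 6 genes held a site, with 1 in Scn2a and 2 in Scn2b, and Scn1a, Scn3a, Scn8a and Scn3b held none of these letters in this window. Of 21023 protein-coding genes with a 3′ UTR, 20.7% held a site and 2.77% an 8mer. The 6 genes had 0.144 sites per kilobase of 3′ UTR against 0.168 over all those genes. The sites are shown with the matching letters in capitals and at most 30 bases each, in GRCm38 on the plus strand, followed by that of Scn4b, another beta subunit, which had an 8mer.
Scn2a, chr2:65766698-65766704: ttcaatagtgaTGCCTTAtcattgacaaga
Scn2b, first site, chr9:45129357-45129363: caggactgaaaGTGCCTTgcggtgccttgg
Scn2b, second site, chr9:45129367-45129373: agtgccttgcgGTGCCTTggaactggcttt
Scn4b, chr9:45151697-45151704: ggggctagattGTGCCTTAgttcctcgagt
The sites of Scn2b overlap in the windows shown, since they start 10 bases apart. A match of letters is a description of the sequence and not a measured binding site.

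3 of the alpha genes lie close together on chromosome 2 of GRCm38 (GENCODE vM21). They are Scn3a (ENSMUSG00000057182, chr2:65457118-65567627, minus strand), Scn2a (ENSMUSG00000075318, chr2:65620771-65767447, plus strand) and Scn1a (ENSMUSG00000064329, chr2:66270778-66440840, minus strand). Scn8a (ENSMUSG00000023033, chr15:100869858-101045938, plus strand) stands alone. Scn3b (ENSMUSG00000049281, chr9:40269217-40291618, plus strand) and Scn2b (ENSMUSG00000070304, chr9:45117782-45130070, plus strand) share chromosome 9, where Scn4b (chr9:45138395-45154152) follows Scn2b. 4 of the members are overlapped by an annotated gene on the opposite strand, but 0 exons of those genes touch an exon of a member, and the 1 with any count, Gm13630 at Scn1a, had 8 counts in the 28 libraries together.

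Libraries held 248612 to 902944 counts and 8687 to 13668 detected genes, and 17.0% to 40.4% of counts fell on ribosomal RNA genes. 4 HA-positive libraries had fewer than 10000 detected genes: those of animals 17, 21 and 22 with the empty vector and of animal 18 with g4. The g4 HA-positive library of animal 19 stood apart, with 591 counts of the female transcript Xist beside 44 counts of Y-linked genes. The other libraries of animal 19 had 0 counts of Xist, and 50, 77 and 99 counts of Y-linked genes. Whether the library that stood apart came from animal 19 alone was not tested, so its pairing with the others is uncertain. In the library that stood apart, summed oligodendrocyte markers reached 1434 CPM (a counts-per-million level, scaled with TMM factors). The other 6 libraries of its group had 105 to 213. Its microglia markers reached 326 against 2.87 to 40.1. The main results that rest on it are given with and without it.

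The fractions differed in their levels of cell-type markers. HA-positive nuclei held more of the transcripts of inhibitory interneurons: with the empty vector the summed level of 14 markers was 3350 to 4813 CPM against 1078 to 1458 in HA-negative nuclei, and 10 of 11 tested markers rose. With g4 it was 2039 to 4101 against 964 to 1471 CPM (2646 to 4101 without the outlying library), and 10 of 12 rose. Markers of excitatory neurons overlapped between fractions, at 983 to 1834 against 1635 to 2365 CPM with the empty vector, and 1 of 11 tested, Bcl11b, fell. With g4 they were at 1417 to 2066 against 1522 to 2290 CPM, and 1 of 12 tested fell. Markers of striatal projection neurons were low in HA-positive nuclei, at 17.6 to 118 against 382 to 922 CPM with the empty vector (3 of 3 tested fell, and Adora2a was at 0 in all 7 HA-positive libraries). With g4 they were at 18.3 to 245 against 115 to 801 CPM, and 4 of 4 tested fell with the outlying library included. Without it they were at 18.3 to 43.7 CPM in HA-positive nuclei. Oligodendrocyte markers fell for 7 of 7 and 5 of 8 tested genes, and microglia markers for 5 of 5 and 3 of 5. Astrocyte markers did not follow them, since 1 of 5 fell with the empty vector and 0 of 5 with g4. Their sums were 642 to 1334 against 1114 to 1486 CPM with the empty vector. With g4 they were 915 to 2326 against 1134 to 1643 CPM. All these counts with g4 include the outlying library. Over all tested genes, 7.01% were called with the empty vector, 3.5% in each direction. With g4 it was 6.4%, with 3.32% higher and 3.08% lower. These differences move with the results on HA-positive against HA-negative nuclei, and their part in those results was not tested. In bulk libraries, more nuclei of a type and more RNA per nucleus cannot be told apart.

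Scn1a was higher in HA-positive than in HA-negative nuclei with both vectors. With the empty vector its level ran from 319 through a median of 468 to 696 CPM in HA-positive nuclei, and from 144 through 230 to 294 CPM in HA-negative nuclei. With g4 it ran from 317 through 361 to 492 CPM and from 165 through 204 to 220 CPM. The lowest HA-positive library lay above the highest HA-negative one with either vector, and Scn1a was higher in 7 of 7 animals both times. Of the 6 members it alone did not overlap between fractions, as was the case for 3.09% of all tested genes with the empty vector and 1.8% with g4. The log2 fold change was 1.08 ± 0.16 (SE, n = 7 libraries per group) with the empty vector and 0.97 ± 0.13 with g4 (edgeR's quasi-likelihood test, adjusted p = 2.79e-05 and 4.44e-06). Both calls held under every alternative run, among them leaving out each animal in turn, with log2 fold changes of 0.98 to 1.14 and 0.90 to 1.02. Without the outlying g4 library of animal 19 the value with g4 was 0.99.

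**Figure D1:**
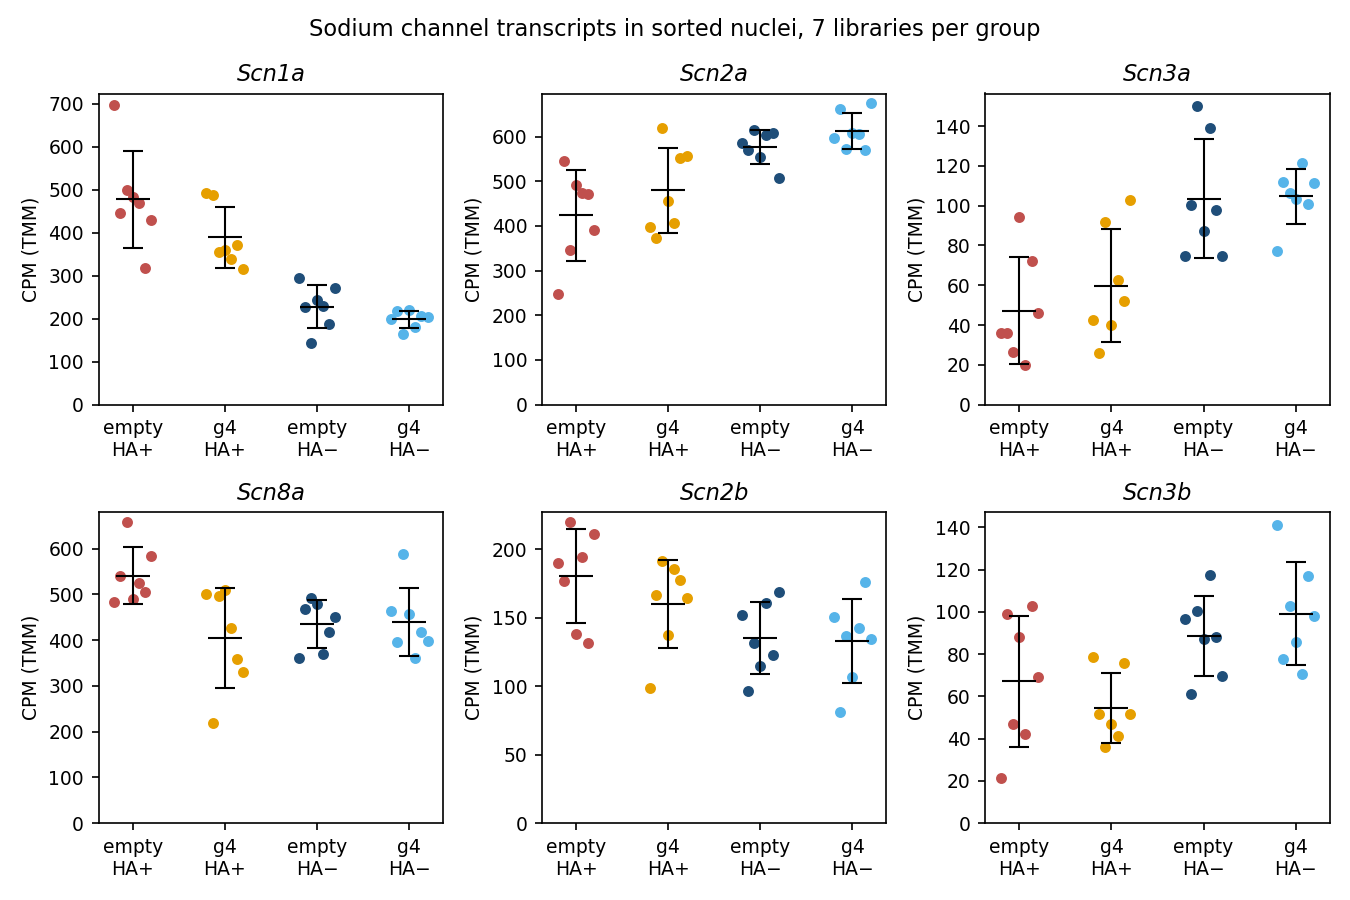
Level of each of the 6 genes in CPM (TMM-scaled, axes from 0) in every library. Points are the 7 libraries of a group in the order of the animal numbers, and black bars show mean ± SD; Scn1a does not overlap between HA-positive (HA+) and HA-negative (HA−) nuclei, whereas the other genes do.

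Scn3a was the lowest of the 4 alpha subunits and fell in HA-positive nuclei. It ran from 19.7 through 35.9 to 94.5 CPM in HA-positive and from 74.7 through 97.8 to 150 CPM in HA-negative nuclei with the empty vector, where 6 of 7 animals were lower. With g4 it ran from 25.8 through 52.3 to 103 CPM and from 77.4 through 107 to 122 CPM, where 7 of 7 animals were lower. The ranges overlapped through single high HA-positive libraries, animal 20 with the empty vector and animals 19 and 23 with g4. The log2 fold change was -1.07 ± 0.30 with the empty vector and -0.79 ± 0.23 with g4 (edgeR, adjusted p = 0.0211 and 0.0341). Its call with the empty vector was lost without animal 18, 19 or 21 (adjusted p 0.0675, 0.134 and 0.0932 by edgeR). With g4 it was lost without animal 17, 18, 20, 21 or 22 (adjusted p 0.0667 to 0.129), without the library under 10000 genes (0.0532) and in a fit over all 28 libraries (0.0727). Without the outlying g4 library of animal 19 the value was -0.95 (adjusted p = 0.00832).

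Scn2a was lower in HA-positive nuclei in nearly every animal but missed the threshold. With the empty vector it ran from 247 through 471 to 546 CPM in HA-positive and from 506 through 586 to 614 CPM in HA-negative nuclei, and 7 of 7 animals were lower. With g4 it ran from 373 through 456 to 619 CPM and from 569 through 605 to 675 CPM, and 6 of 7 animals were lower. The HA-positive library of animal 18 with the empty vector and that of animal 19 with g4 were the ones that reached into the HA-negative range. The log2 fold change was -0.42 ± 0.14 with the empty vector and -0.35 ± 0.12 with g4 (edgeR, adjusted p = 0.0586 and 0.0663). Scn2a passed for the empty vector with DESeq2 (adjusted p = 0.0403), without a filter on low counts (0.0397), in 1 fit over all 28 libraries (0.0213) and without animal 18 (0.0445). It passed with limma voom for both vectors (0.0444 and 0.0484) and without the outlying g4 library of animal 19 for g4 (-0.43, adjusted p = 0.0147).

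Although the difference between the vectors was not called, Scn8a had log2 fold changes of opposite sign with the 2 vectors. With the empty vector it ran from 484 through 525 to 658 CPM in HA-positive and from 362 through 451 to 493 CPM in HA-negative nuclei, and was higher in 7 of 7 animals. With g4 it ran from 218 through 427 to 510 CPM and from 360 through 418 to 588 CPM, and was higher in 3 of 7 animals. The 218 CPM came from animal 18, a library under 10000 genes. 5 of the 7 HA-positive libraries with the empty vector lay above all HA-negative ones, whereas none did with g4. The log2 fold change was 0.33 ± 0.12 and -0.11 ± 0.15, and neither passed (edgeR, adjusted p = 0.0933 and 0.783). Without the outlying g4 library of animal 19 the second was -0.17.

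Scn2b, which links to the alpha subunit by a disulfide bond, was higher in HA-positive nuclei of 7 of 7 animals with the empty vector (132 through 190 to 220 CPM against 96.4 through 131 to 169 CPM). With g4 it was higher in 6 of 7 (98.9 through 166 to 191 CPM against 81.3 through 137 to 176 CPM). The ranges overlapped and the log2 fold changes of 0.42 ± 0.18 and 0.26 ± 0.17 did not pass (edgeR, adjusted p = 0.193 and 0.472), and the second was 0.20 without the outlying g4 library. Scn3b, which associates with the alpha subunit without such a bond, ran from 36.1 through 51.5 to 78.7 CPM in HA-positive and from 70.7 through 97.9 to 141 CPM in HA-negative nuclei with g4. It was lower in 7 of 7 animals and fell by 0.89 ± 0.22 on the log2 scale (edgeR, adjusted p = 0.0111), a call that held under every alternative run (adjusted p 0.00326 to 0.0402), with a value of -0.79 without the outlying library. With the empty vector it ran from 21.5 through 69.1 to 103 CPM and from 61.0 through 88.2 to 118 CPM, lower in 4 of 7 animals, with a log2 fold change of -0.36 ± 0.28 (adjusted p = 0.533).

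By count, 1 of the 6 members rose (Scn1a) and 1 fell (Scn3a) with the empty vector, where 7.01% of 5538 tested genes were called, 3.5% in each direction. With g4, 1 rose (Scn1a) and 2 fell (Scn3a and Scn3b), where 6.4% of 6264 tested genes were called, 3.32% higher and 3.08% lower. The median log2 fold change of the members was -0.01 and -0.23, against 0.01 and 0.01 over all tested genes. The difference between the vectors in these fraction effects was not called for any member (edgeR interaction over 28 libraries, adjusted p 0.971 to 0.998, 0% of 7197 genes called).

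**Figure D2:**
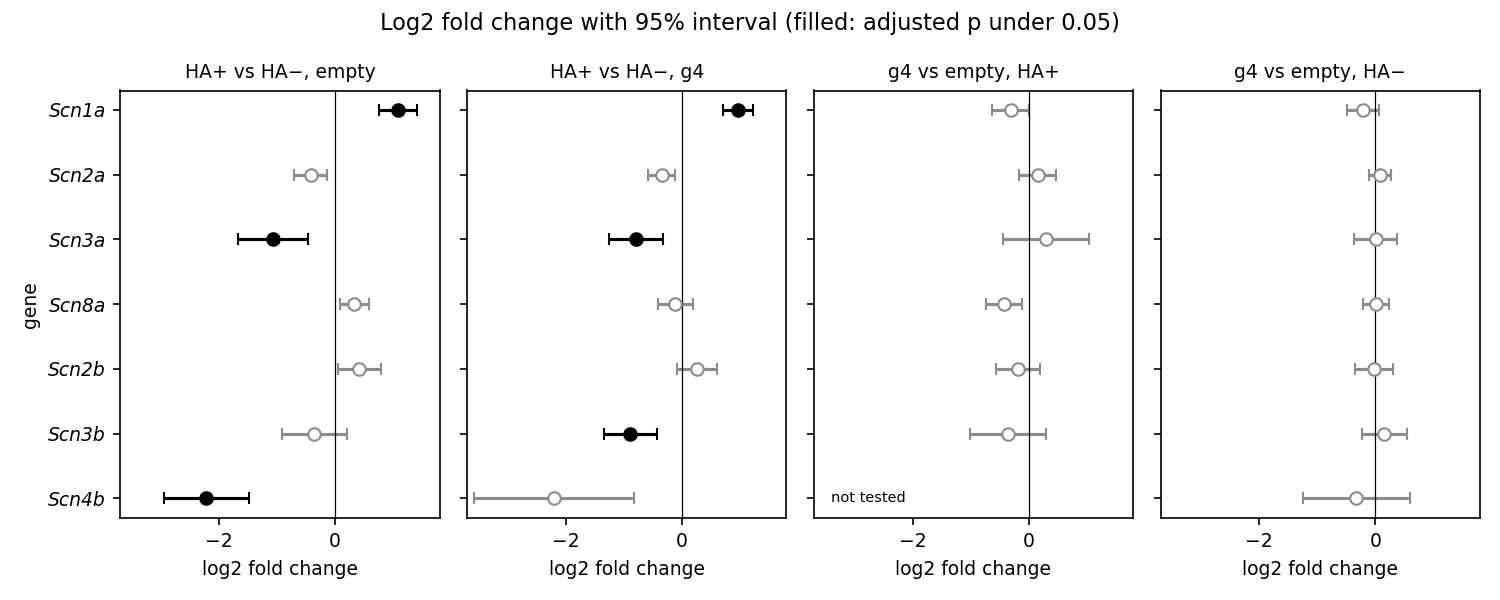
Log2 fold change with its 95% confidence interval from edgeR for the 6 genes in 4 comparisons and for the beta subunit Scn4b in the 3 where it was tested (n = 7 libraries per group). Filled points have an adjusted p under 0.05; Scn1a lies near 1 in both comparisons of HA-positive with HA-negative nuclei, and no point is filled in the 2 comparisons of g4 with the empty vector.

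A ratio of 2 genes within 1 library does not depend on library size, so Scn1a was also set against the other main alpha subunits. It uses the same counts as the levels above, so it restates them and is not separate support for the higher Scn1a level. That higher level was known when the tests were chosen, and ratios outside the sodium channels were not computed. The count ratio of Scn1a to Scn2a ran from 0.678 through 0.988 to 2.79 in HA-positive and from 0.237 through 0.402 to 0.535 in HA-negative nuclei with the empty vector. With g4 it ran from 0.571 through 0.791 to 1.31 and from 0.291 through 0.332 to 0.364. No HA-positive library overlapped the HA-negative ones. The mean log2 ratio differed by 1.54 with the empty vector and 1.32 with g4, in the same direction in 7 of 7 animals each (exact two-sided permutation test over 3432 splits, p = 0.000583 for each, the smallest the design allows, adjusted p = 0.00155 over 8 ratio tests). The second difference was 1.40 without the outlying g4 library. The highest ratio, 2.79, came from animal 17 with the empty vector, 1 of the libraries under 10000 genes, where Scn1a was at its highest and Scn2a at its lowest of the group.

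Against Scn8a the shift was smaller with the empty vector. The count ratio of Scn1a to Scn8a ran from 0.632 through 0.822 to 1.43 in HA-positive and from 0.295 through 0.508 to 0.815 in HA-negative nuclei, a difference in mean log2 ratio of 0.74 (exact permutation test, p = 0.00466, adjusted p = 0.00932). With g4 it ran from 0.707 through 0.961 to 2.22 and from 0.283 through 0.495 to 0.551, a difference of 1.10 (exact permutation test, p = 0.000583, adjusted p = 0.00155) that was 1.18 without the outlying library. All 7 animals moved in the same direction with each vector, and the ranges overlapped with the empty vector alone. The 4 calls on fractions held under every alternative run, the paired test within animals included, where each had an exact p = 0.0156, the smallest that 7 pairs allow. With g4 the paired test and the count of 7 animals include animal 19, whose pairing is uncertain.

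**Figure D3:**
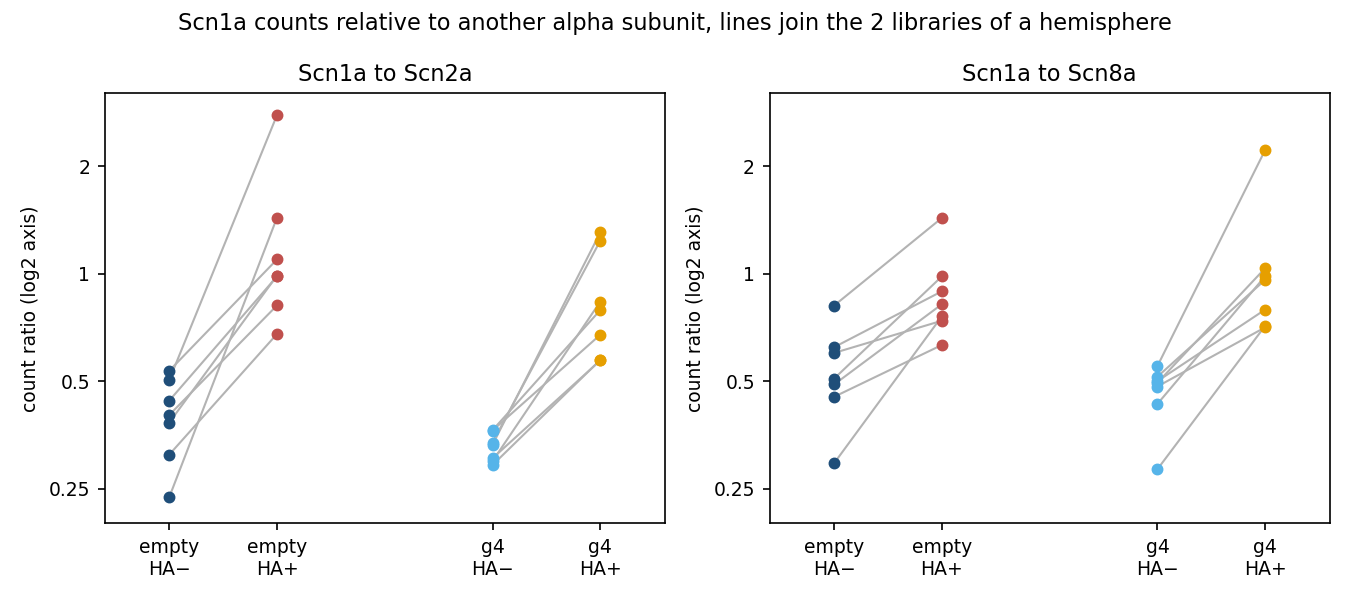
Count ratio of Scn1a to Scn2a (left) and to Scn8a (right) on a log2 axis, with 1 point per library and lines joining the HA-negative and HA-positive library of the same hemisphere (7 animals per vector). Every line rises from HA-negative to HA-positive nuclei; the axis compares libraries, and since the genes differ in length a ratio of 1 is not an equal level.

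Levels of different genes were compared only after division by the summed length of their exons, as CPM per kilobase. The order of medians in HA-positive nuclei with the empty vector was Scn1a (42.0), Scn2b (40.8), Scn2a (37.0), Scn8a (33.3), Scn3b (12.7), Scn4b (4.65) and Scn3a (2.88). HA-negative nuclei with the empty vector had Scn2a (46.0), Scn4b (29.3), Scn8a (28.6), Scn2b (28.2), Scn1a (20.7), Scn3b (16.1) and Scn3a (7.85). With g4, HA-positive nuclei had Scn2a (35.8), Scn2b (35.7), Scn1a (32.4), Scn8a (27.1), Scn3b (9.43), Scn3a (4.20) and Scn4b (4.13). Scn2b (35.6) came before Scn2a (33.9) there without the outlying g4 library, with the other genes in the same order. HA-negative nuclei with g4 had Scn2a (47.5), Scn2b (29.4), Scn8a (26.5), Scn4b (25.3), Scn1a (18.3), Scn3b (17.9) and Scn3a (8.55). Neighbours in these orders overlapped over the 7 libraries, apart from Scn8a and Scn3b in HA-positive nuclei with the empty vector and, in HA-negative nuclei with g4, Scn2a and Scn2b as well as Scn3b and Scn3a. Of these 7 genes, Scn1a had the highest median in HA-positive nuclei with the empty vector and the 5th highest in both HA-negative groups. Nuclear RNA can hold intron reads, and the sources used here do not say whether these were counted, so these levels rest on exon length alone.

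Within the sum of the 4 alpha subunits per kilobase, Scn1a took 37.3% ± 8.16 (SD, n = 7) in HA-positive nuclei with the empty vector and 34.2% ± 7.85 with g4, against 20.2% ± 4.58 and 17.4% ± 1.70 in HA-negative nuclei. Its lowest share in HA-positive nuclei, 27.6% with the empty vector and 26.7% with g4, lay above its highest in HA-negative nuclei, 26.0% and 18.9%. Scn2a took 29.2% ± 6.98 and 36.5% ± 5.52 against 44.6% ± 2.69 and 47.0% ± 2.73. Scn8a stayed between mean shares of 24.7% and 30.1% in the 4 groups, and Scn3a took 3.34% and 4.61% against 8.14% and 8.22%. The sum itself was 114 ± 5.92 CPM per kilobase in HA-positive nuclei with the empty vector, 103 ± 9.96 with g4, and 102 ± 2.18 and 102 ± 4.02 in the HA-negative groups. Without the outlying g4 library the g4 HA-positive group had 35.5% ± 7.79 for Scn1a, 35.7% ± 5.68 for Scn2a, 4.34% ± 2.14 for Scn3a and 24.5% ± 6.03 for Scn8a, and a sum of 100.4 ± 7.64 CPM per kilobase (SD, n = 6).

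**Figure D4:**
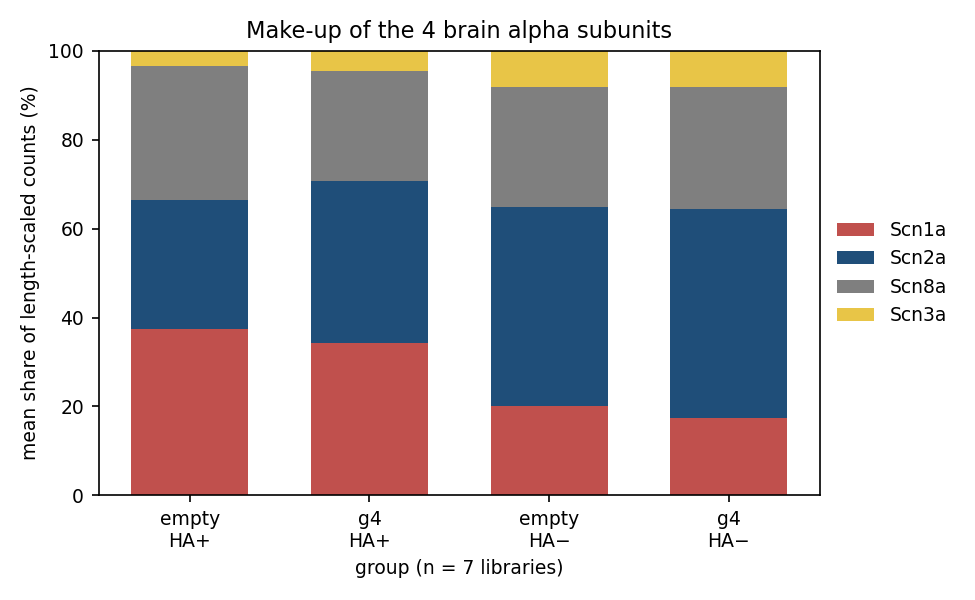
Mean share of each alpha subunit in the sum of the 4, from CPM per kilobase of exon, in each group of 7 libraries. Bars are stacked to 100%; the Scn1a share is 37.3% and 34.2% in HA-positive nuclei and 20.2% and 17.4% in HA-negative nuclei.

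The vectors were also compared within each fraction. None of the 6 members was called in HA-positive nuclei, where 0.0599% of 5011 tested genes were (3 genes by edgeR, 0.02% higher and 0.0399% lower), and every member overlapped between the vectors, as all but 0.239% of genes did. 1 member had an unadjusted p under 0.05 by edgeR, Scn8a, and by DESeq2 and limma voom 0 members were called and 1 had such a p. Scn8a ran from 218 through 427 to 510 CPM with g4 and from 484 through 525 to 658 CPM with the empty vector. 4 of the 7 g4 libraries lay below all of the empty vector, and 5 of 7 animals were lower. The log2 difference of Scn8a was -0.43 ± 0.15, with a 95% interval of -0.74 to -0.11 (edgeR, adjusted p = 0.671 over all genes). The lowest value, 218 CPM, came from animal 18, a library under 10000 genes, and without that animal the difference was -0.33 (adjusted p = 0.755). Without the g4 library of animal 19 it was -0.48 (adjusted p = 0.563).

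Scn1a in HA-positive nuclei was at a median of 361 CPM with g4 and 468 CPM with the empty vector, lower in 5 of 7 animals, with overlapping ranges. Its log2 difference was -0.31 ± 0.15 with a 95% interval of -0.62 to 0.00324 (edgeR, adjusted p = 0.736). The 2 members with miR-124 seed matches differed by 0.16 ± 0.16 (Scn2a, interval -0.16 to 0.48, adjusted p = 0.906) and by -0.17 ± 0.19 (Scn2b, interval -0.55 to 0.21, adjusted p = 0.918). Scn2a was higher with g4 in 4 of 7 animals and Scn2b in 1 of 7. Scn3a and Scn3b had the widest intervals, -0.44 to 1.04 and -1.01 to 0.30. Without the outlying g4 library of animal 19 the differences were -0.29 for Scn1a, 0.08 for Scn2a, 0.16 for Scn3a, -0.22 for Scn2b and -0.26 for Scn3b, with 0 of them called (edgeR, adjusted p 0.841 to 0.980).

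Of the listed cell-type markers, 0 was called between the vectors in HA-positive nuclei, so the following values are descriptive. The oligodendrocyte markers had a median log2 difference of 1.84, and 2 of 2 tested were higher with g4. The summed level of the 9 listed was 1434 CPM in the outlying g4 library. It was 105 to 213 CPM in the other 6 g4 libraries and 63.6 to 142 CPM with the empty vector. The interneuron markers had a median log2 difference of -0.27 and 3 of 12 were higher with g4, with summed levels of 2039 to 4101 CPM (2646 to 4101 without the outlying library) against 3350 to 4813 CPM with the empty vector. The astrocyte markers had a median of 0.61 and 5 of 5 were higher, with sums of 915 to 2326 against 642 to 1334 CPM. The median of excitatory neuron markers was 0.26, with 8 of 11 higher, against -0.01 over all tested genes. The part of these markers in the values of Scn1a and Scn8a was not tested.

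In HA-negative nuclei the 2 vectors gave closer values. The log2 difference of g4 from empty was -0.21 ± 0.14 for Scn1a, 0.08 ± 0.10 for Scn2a, 0.01 ± 0.18 for Scn3a, 0.02 ± 0.11 for Scn8a, -0.02 ± 0.16 for Scn2b and 0.16 ± 0.19 for Scn3b. None was called (edgeR, adjusted p = 0.999 for each, 0% of 6262 genes called) and all overlapped between vectors, as all but 0.0958% of genes did. Of the members, 0 had an unadjusted p under 0.05 by edgeR, DESeq2 or limma voom. For Scn8a the difference between the g4 effects in the 2 fractions was -0.43 ± 0.19 (edgeR interaction, adjusted p = 0.971), and -0.50 without the outlying library. Of all genes, 0 were called for this difference and 359 had an unadjusted p under 0.05, Scn8a alone among the members. The count ratio of Scn1a to Scn2a differed between vectors by -0.47 in HA-positive nuclei (-0.39 without the outlying library; exact permutation test, p = 0.154, adjusted p = 0.206) and by -0.26 in HA-negative nuclei (p = 0.143, adjusted p = 0.206, exact permutation test). Without animal 19 the second was -0.35, and its adjusted p of 0.0381 passed. For Scn1a to Scn8a the differences were 0.18 (0.25 without the outlying library) and -0.18 (exact permutation test, adjusted p = 0.534 and 0.442).

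Of the sodium channel genes outside the 6 members, Scn4b is described for comparison. Scn4b, a beta subunit known for its high level in striatal projection neurons, was low in HA-positive nuclei, from 14.3 through 23.2 to 76.2 CPM with the empty vector against 96.4 through 146 to 290 CPM in HA-negative nuclei. The groups did not overlap, and Scn4b fell by 2.22 ± 0.36 on the log2 scale (edgeR, adjusted p = 9.89e-05). The striatal marker sums given above moved in the same direction, and their part in this was not tested. With g4, Scn4b ran from 0 through 20.6 to 76.5 CPM against 13.6 through 126 to 200 CPM, lower in 7 of 7 animals, with a log2 fold change of -2.20 ± 0.63 that missed the threshold (edgeR, adjusted p = 0.0653). With the animal as a block the Scn4b value was -2.42 and was called (adjusted p = 0.000119), as it was with DESeq2 (-2.33, 0.0178), in 1 fit over all 28 libraries (0.0151), without the outlying g4 library of animal 19 (-2.92, adjusted p = 0.0117), without animal 18 (-2.18, 0.0322) and without animal 19 (-2.92, 0.022).

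The alpha subunits of other tissues were at or near the limit of detection. Scn4a of skeletal muscle had 0 counts among the 14988406 counts of the 28 libraries, which allows up to 0.2 CPM before TMM scaling (3 counts). Scn10a and Scn11a of sensory neurons had 1 and 6 counts. Scn9a had 67 counts, of which the strand cannot be told from its antisense neighbour Gm13629 with 49, and Scn7a had 114. None of these 5 genes was high enough to test. The limit covers counting error only.

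Among 18 partners and regulators of these channels (anchors of the axon initial segment and node, intracellular fibroblast growth factors, calmodulins and ubiquitin ligases), 17 were tested. Between the fractions, 1 fell with the empty vector, where 7.01% of all tested genes were called. With g4, 1 rose and 1 fell, where 6.4% of all tested genes were called. So few calls are near the share over all genes. Nedd4l, a ubiquitin ligase that removes sodium channels from the membrane, fell with both vectors. It ran from 76.4 through 135 to 245 CPM against 181 through 217 to 281 CPM with the empty vector, and from 77.5 through 121 to 151 CPM against 137 through 174 to 242 CPM with g4, lower in 7 of 7 animals both times. Its log2 fold change was -0.65 ± 0.19 and -0.56 ± 0.17 (edgeR, adjusted p = 0.0334 and 0.0359), a call lost without any of 5 animals with the empty vector (17, 18, 19, 20 and 23, adjusted p 0.0783 to 0.178) and without 3 with g4 (21, 22 and 23, 0.117 to 0.158). With g4 it was also lost with limma voom (0.057), in 1 fit over all 28 libraries (0.0602) and without the library under 10000 genes (0.0616).

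Fgf12, an intracellular factor that binds the tail of the alpha subunit, rose with g4. It ran from 121 through 206 to 306 CPM in HA-positive and from 69.3 through 94.5 to 162 CPM in HA-negative nuclei, higher in 6 of 7 animals. The log2 fold change was 0.85 ± 0.21 (edgeR, adjusted p = 0.00963), lost without animal 22 (0.68, adjusted p = 0.0714). With the empty vector it was 0.71 ± 0.23 (adjusted p = 0.0607), and Fgf12 passed there without animal 21 (0.75, 0.0346) or 22 (0.82, 0.0273), without the 3 libraries under 10000 genes (0.94, 0.000742) and without a filter on low counts (0.0368). The remaining partners gave no call in either comparison (16 not called with the empty vector and 15 with g4), and in the comparisons of g4 with the empty vector 0 of 17 was called in either fraction.

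The genes whose profile over the 28 libraries was most like that of Scn1a were found by the root mean square difference of centred log2(CPM + 1) among 5981 genes with a mean of at least 20 CPM. Among them were Atp1b1 (0.26), Cadps (0.29), Ttbk2 (0.29) and Btbd3 (0.29), where Scn1a's own spread was 0.58 and the median gene stood at 0.88. Atp1b1, a beta subunit of the sodium pump, had means of 1779 and 1460 CPM in HA-positive nuclei with the empty vector and g4, and of 966 and 914 CPM in HA-negative nuclei. For Scn2a they were Inpp4a (0.19), Mrtfb (0.21), Itpr1 (0.21), Add1 (0.22) and Ddx5 (0.23), where Scn2a's own spread was 0.32 and the median gene stood at 0.70. No gene named here was on both lists. The libraries differ in depth and may differ in cell makeup, which all genes of a library share, so likeness describes this set alone.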

How the data were processed

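The values deposited by the authors are raw counts, whole numbers with genes in rows and libraries in columns. Empty cells were read as 0, 1 unnamed entry of 41550 was dropped, and 41474 identifiers matched GENCODE vM21. The build is GRCm38 per the submitters' processing notes; for the aligner, counting program and strand setting the entry is not given in the sources used here, so reads of overlapping or related genes could not be assigned with certainty. For 3 animals the number in the column name is 1 higher than in the title, and the descriptions tied columns to samples.

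Genes were tested with edgeR 4.0.16 (R 4.3.3; filterByExpr by group, TMM, robust quasi-likelihood, two-sided) across all genes, with Benjamini-Hochberg adjustment, and called under 0.05. SE is the log2 fold change over the root of F. DESeq2 1.42.0 and limma 3.58.1 voom were alternatives. Ratios used counts + 1 and exact permutation tests (scipy 1.17.1). The scripts were tested on simulated data. Named genes were the 6 members, called genes of the lists of other sodium channel genes and partners, and the 5 most alike. The members and all lists were chosen with earlier results of these data known, and the higher Scn1a level in HA-positive nuclei was among them.

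Libraries with the same number came from 1 animal, per the titles, which pairs them. Their deviations from group means correlated little, with medians of 0.01 to 0.07 over the comparisons. The animal as a block was therefore an alternative. Other alternatives were other size factors, no filter, 1 fit over all libraries, ribosomal RNA removed, and leaving out each animal, the library of animal 19 that stood apart, or the 4 libraries under 10000 genes. No 2 libraries had identical counts. Results on some further genes that the rule selected are not reported here.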

Additional observations from a re-analysis of the deposited data

Results flagged for a closer look

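Of 32 group and measure combinations (the 6 members' levels and the 2 count ratios in 4 groups of 7), 2 had a library far from the others, where chance gives about 1 in 20, or 1.6. The log2 ratio of Scn1a to Scn8a in g4 HA-positive nuclei was 1.15 in animal 18, with the next library at 0.05. The same ratio in g4 HA-negative nuclei was -1.82 in animal 19, with the next at -1.21.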

How the results depend on the processing

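Of 456 alternative values for the 6 members over 30 results, 429 kept their direction and side of the threshold, 10 lost a call (Scn3a in both fraction comparisons), 8 gained one (Scn2a in both) and 9 changed sign. In the 3 comparisons that involve the vectors 0 of 270 values for members were called, and the lowest adjusted p was 0.275. The causes were not tested.

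The number of genes called for g4 against empty in HA-positive nuclei was 3, and became 11 with DESeq2, 28 without a filter on low counts, 1 with the replicate block, 8 in 1 fit over all 28 libraries, 0 without the libraries under 10000 genes, and 1 to 5 when single animals or the library of animal 19 were left out. In HA-negative nuclei DESeq2 called 1 gene, and without a filter the interaction had 3. HA-positive against HA-negative nuclei with the empty vector gave 388, against 661 without a filter, 612 in 1 fit over all libraries and 251 to 371 with an animal left out (251 without animal 19). With g4 it gave 401, and 218 to 507 with an animal or library left out (218, 224 and 241 without animals 20, 21 and 22). The block changed no call of a member.

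With single animals left out, some values for g4 against empty and for the interaction changed sign. Over all alternatives, in HA-negative nuclei Scn3a ran from -0.078 to 0.11, Scn8a from -0.034 to 0.061 and Scn2b from -0.12 to 0.046. In the interaction Scn2a ran from -0.077 to 0.21 and Scn3a from -0.080 to 0.68. For g4 against empty, the log2 ratio of Scn1a to Scn8a in HA-positive nuclei ran from -0.031 to 0.30 (-0.031 without animal 18) and that of Scn1a to Scn2a in HA-negative nuclei from -0.35 to -0.16. The lowest counts behind the members were those of Scn3a and Scn3b: Scn3a had 7 to 58 counts and Scn3b 6 to 54 per HA-positive library with the empty vector.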
